A study of Bos taurus with 147 samples.

Results

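Decorin (DCN), lumican (LUM), osteoglycin (OGN) and glypican 3 (GPC3) are proteoglycans, proteins of the cell surface or the extracellular matrix that carry glycosaminoglycan chains. They were chosen with earlier results of these data known, so that their falls are no independent find. Their elements were taken by gene symbol: every array element annotated with 1 gene symbol equal to 1 of these 4. That gave 22 of the 21168 elements on the array, which are 11 cDNAs spotted in duplicate: 6 of DCN, 2 of LUM, 2 of OGN and 1 of GPC3. The 4 genes are among 976 genes with elements that carry a single symbol, and all 4 passed the filter on missing values.

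The study followed longissimus muscle, the long muscle of the back, through gestation in cattle out of Hereford dams. One set of fetuses and newborn calves was sired by Piedmontese bulls (Piedmontese x Hereford, called the Piedmontese cross here), which are homozygous for a missense mutation of the myostatin gene GDF8, so that their offspring inherit 1 copy from the sire. The other was sired by Wagyu bulls (Wagyu x Hereford, the Wagyu cross), which do not carry it. Muscle was taken at day 60 (d60), day 135 (d135; the study's Methods name a slightly earlier day) and day 195 (d195) of gestation and within a day of birth, from 3 animals per breed and stage. All d60 fetuses of a cross had the same sire, the d135 fetuses of the Wagyu cross shared that of its d60 fetuses, and all d195 fetuses of the Piedmontese cross, twins among them, had the same sire, so that sire and stage cannot be fully told apart in these samples. The newborn calves were all female, while both sexes were recorded at each earlier stage over the crosses. Sex and stage cannot be fully told apart either. At d60 the muscle could not yet be told apart by eye, so that tissue was cut from where it would later lie, and the skin above was harder to remove than at later stages. The study also saw signs that RNA amplification had distorted the d60 sample of a single animal, and every value that involves d60 rests on these samples. A second set of arrays held longissimus muscle of later Piedmontese x Hereford and Wagyu x Hereford animals at 3 times, labelled T1, T2 and T3, whose ages the labels do not give.

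Each array compared RNA of 2 groups (amplified RNA in the fetal set), one labelled with the dye Cy5 and the other with Cy3, and each value is a log2 ratio between them: -1 is a level 2-fold lower. The 25 fetal arrays form a closed loop of 8 links, with 3 arrays in each link and 4 in the link from d135 to d195 of the Wagyu cross. The breeds meet on the same array at d60 and at birth only, and no array joins d60 to birth directly, so that birth over d60 is a sum of 3 steps. The 20 crossbred arrays hold 4 arrays of Piedmontese against Wagyu cross at each time and 2 arrays for each step in each cross. In both sets, the later stage or time of a step carried Cy3 in the Piedmontese cross and Cy5 in the Wagyu cross. Cross and dye therefore cannot be told apart in single-array ratios of a step, while the fits include a term for dye. Where the fetal crosses met, the Piedmontese cross carried Cy3 at d60 and Cy5 at birth on every array. The direction of the ratios, Cy5 over Cy3, is likely rather than stated, and rests on the dyes in the labels and on the layout of the loop. Were it reversed, every fall below would be a rise and every order from the lowest an order from the highest. A gene is said to have fallen or risen where its adjusted p in limma, with Benjamini-Hochberg correction across every feature tested, is under 0.05. Arrays were treated as independent although animals are shared between arrays, so the p-values measure the spread between arrays. The tested features were 16659 in the fetal set (975 named genes) and 17253 in the crossbred set (973 named genes). A named gene is a mean over its elements, while every other feature is a single element, with duplicate spots counted apart. The shares of features given below are therefore not shares of features measured alike, and none was computed for the named genes alone.

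DCN, LUM and OGN are small leucine-rich proteoglycans. These secreted proteins have a core of leucine-rich repeats, bind fibrillar collagens such as types I and III, and govern how collagen fibrils assemble and how thick they become. DCN also binds growth factors, transforming growth factor beta and myostatin among them. GPC3 is of another family: it is held in the cell membrane by a lipid anchor, carries heparan sulphate chains and modulates Wnt, Hedgehog and insulin-like growth factor signals, and its loss causes overgrowth before birth in humans. In muscle the small leucine-rich proteoglycans come mainly from fibroblasts of the connective tissue. In whole muscle, a lower ratio can come from fewer cells that express the gene or from less RNA per cell, and these cannot be told apart.

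All 4 genes fell between d60 and birth, in both crosses. Averaged over the crosses, GPC3 fell 21.2-fold, LUM 10.3-fold, OGN 4.40-fold and DCN 3.92-fold. The sizes depend on the scaling: with all arrays scaled to one spread the log2 change of GPC3 was -3.41, against -4.40. That of DCN was -2.58 with the median over its elements, against -1.97 with their mean, which puts it below that of OGN (-2.45 with the median). Of all features tested, 25.7% were lower at birth than at d60 by the same rule in the mean of the crosses, 22.9% in the Piedmontese cross and 24.7% in the Wagyu cross. Among the 975 named genes, ordered from the largest fall, GPC3 stood at rank 2, LUM at rank 10, OGN at rank 44 and DCN at rank 53.

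**Figure D1:**
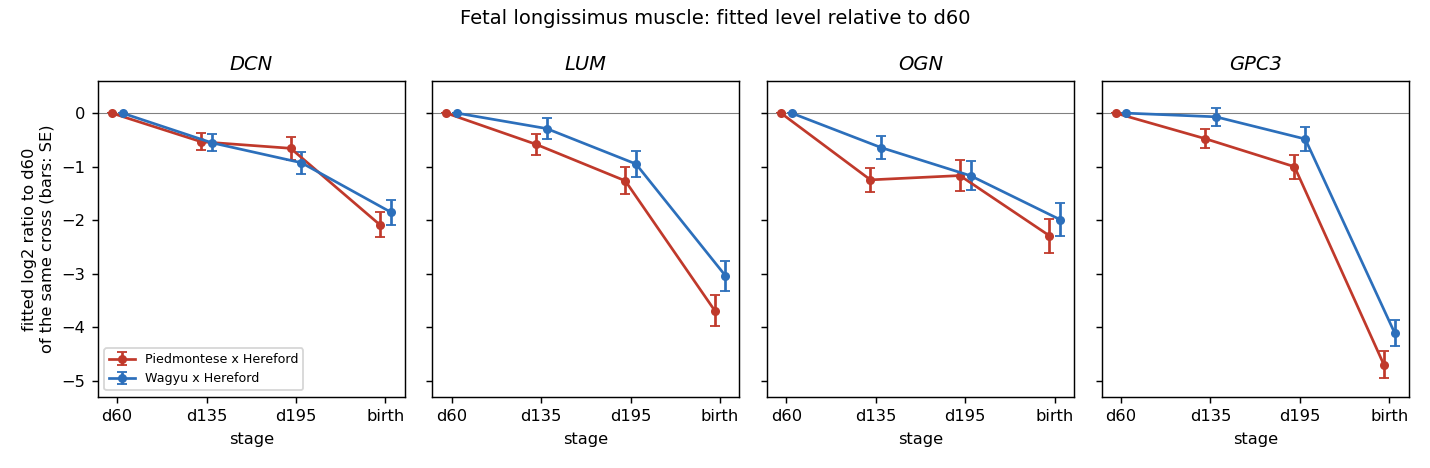
Fitted level of DCN, LUM, OGN and GPC3 in longissimus muscle of each cross at d60, d135, d195 and birth, as a log2 ratio to d60 of the same cross; bars are the SE of the fit. GPC3 reaches -4.70 in the Piedmontese cross and -4.11 in the Wagyu cross at birth, and most of its descent lies after d195.

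The steps differ in size. Between d60 and d135, 3 of the 4 genes fell in the mean of the crosses (17.1% of all features were lower), between d135 and d195 2 of the 4 fell (6.22%), and between d195 and birth all 4 fell (25.8%). The last step made up 83.1% of the summed log2 fall of GPC3, 67.1% of that of LUM, 59.8% of that of DCN and 45.4% of that of OGN. The steps are not of equal length and the last includes birth, so that these shares are not rates. Whether the fall of the last step was larger than that of the first was tested as a difference of whole changes. It was larger for DCN, LUM and GPC3 and not called for OGN, against 19.7% of all features lower by this rule. For DCN that call was lost under some alternative ways of processing (adjusted p up to 0.28). The fall of the last step was larger than that of the second for all 4 genes, against 17% of features. Within the crosses, the first step was called for all 4 genes in the Piedmontese cross (15.2% of features lower) and for DCN alone in the Wagyu cross (4.97%). The second was called for LUM alone in either cross (0.81% and 2.46% of features lower in the Piedmontese and Wagyu cross). The last was called for all 4 genes in both (18.8% and 22.9%). A call in one cross and not in the other is no difference between the crosses, and by limma no step differed between them for any of the 4 genes, although the unadjusted p was under 0.05 for OGN in the first and second steps (0.0473 and 0.038) and for DCN in the last (0.0252). Of all 16659 features, 0 differed between the crosses in the first step, 2 in the second and 0 in the last, so these non-calls are not particular to the 4 genes.

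DCN, the collagen-binding proteoglycan that also binds growth factors, fell in 2 of the 3 steps. On the 3 arrays of d135 over d60 its log2 ratio was -0.80, -0.56 and -0.40 in the Piedmontese cross and -0.87, -0.33 and -0.31 in the Wagyu cross, below 0 on all 6. For d195 over d135 it was -0.50, -0.39 and 0.37 in the Piedmontese cross and -0.60, -0.28, -0.22 and -0.18 in the Wagyu cross, so that 1 array went the other way. On that array cDNA 2 was at 2.52, and the other cDNAs of DCN lay between -0.57 and 0.12. For birth over d195 it was -1.605, -1.44 and -1.41 in the Piedmontese cross and -1.02, -0.95 and -0.65 in the Wagyu cross. The arrays of the last step lie lower than those of the first in the Piedmontese cross, while those of the Wagyu cross overlap with them. That overlap is one of the mean over cDNAs. In the Wagyu cross cDNAs 1, 3 and 6 of DCN lay lower in the last step on every array. There cDNAs 2 and 5 overlapped between the steps, and cDNA 4 lay higher in the last. The fitted log2 changes, averaged over the crosses, were -0.54 (SE 0.12, adjusted p = 0.00175), -0.25 (SE 0.11, adjusted p = 0.152) and -1.18 (SE 0.12, adjusted p = 8.27e-08), and -1.97 (SE 0.21, adjusted p = 1.01e-07) from d60 to birth. The last step exceeded the first by -0.63 (SE 0.17, adjusted p = 0.00618) and the second by -0.93 (SE 0.17, adjusted p = 0.000235). The difference from the first was no longer called without the arrays numbered 2 (adjusted p = 0.0991). Over all alternative ways of processing it ranged from -1.09 to -0.31, with adjusted p up to 0.28. Without the arrays numbered 3, the second step was itself called (adjusted p = 0.0217).

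LUM, a keratan sulphate proteoglycan that binds the same collagens, fell in all 3 steps. Its log2 ratio for d135 over d60 was -0.64, -0.57 and -0.38 on the arrays of the Piedmontese cross and -0.71, -0.28 and -0.027 on those of the Wagyu cross. For d195 over d135 it was -0.85, -0.58 and -0.47 in the Piedmontese cross and -1.16, -0.91, -0.56 and -0.22 in the Wagyu cross. For birth over d195 it was -2.64, -2.41 and -2.07 in the Piedmontese cross and -2.55, -2.29 and -1.58 in the Wagyu cross. Every one of these ratios is below 0, and the 6 of the last step lie below all 13 of the earlier steps. The fitted changes were -0.43 (SE 0.15, adjusted p = 0.0292), -0.67 (SE 0.14, adjusted p = 0.00209) and -2.26 (SE 0.15, adjusted p = 2.18e-10), and -3.36 (SE 0.25, adjusted p = 1.37e-09) over the whole period. With all arrays scaled to one spread, the last step was -1.599. The last step exceeded the first by -1.82 (SE 0.21, adjusted p = 1.61e-06) and the second by -1.58 (SE 0.20, adjusted p = 5.07e-06). The call of the first step rests on all arrays: without those numbered 1, 2 or 3 its adjusted p was 0.0992, 0.0913 and 0.108. That of the second step was lost without the arrays numbered 1 (adjusted p = 0.0642).

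OGN, a further member of the family, fell about as much before d135 as after d195. On the arrays of d135 over d60 its log2 ratio was -1.42, -1.11 and -1.08 in the Piedmontese cross and -1.03, -0.60 and -0.44 in the Wagyu cross. For d195 over d135 it was -0.38, 0.27 and 0.48 in the Piedmontese cross and -1.03, -0.75, -0.59 and 0.09 in the Wagyu cross, on both sides of 0. For birth over d195 it was -1.35, -1.29 and -0.60 in the Piedmontese cross and -1.36, -0.93 and -0.29 in the Wagyu cross. The ranges of the first and last steps overlap in both crosses, unlike those of LUM. These values are means over 2 cDNAs with different courses, given below. On the Wagyu cross arrays numbered 2, cDNA 1 had no value in any step. There -1.03 in the first step, -0.75 in the second and -0.29 in the last are of cDNA 2 alone. The 0.48 of the Piedmontese cross joins cDNA 1 at 2.565 and cDNA 2 at -0.556. The fitted changes were -0.95 (SE 0.17, adjusted p = 0.00022), -0.22 (SE 0.16, adjusted p = 0.367) and -0.97 (SE 0.17, adjusted p = 5.24e-05), and -2.14 (SE 0.28, adjusted p = 1.94e-06) from d60 to birth. The difference between the last step and the first was -0.026 (95% confidence interval -0.51 to 0.46, adjusted p = 0.945). The last step exceeded the second by -0.75 (SE 0.23, adjusted p = 0.0145), a call lost without the arrays numbered 1 (adjusted p = 0.0508) or 3 (adjusted p = 0.241).

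GPC3, the heparan sulphate proteoglycan of the cell membrane, fell 12.7-fold between d195 and birth and less before. For d135 over d60 its log2 ratio was -0.81, -0.29 and -0.23 on the arrays of the Piedmontese cross and -0.33, -0.11 and 0.14 on those of the Wagyu cross. For d195 over d135 it was -0.95, -0.68 and 0.15 in the Piedmontese cross and -0.86, -0.49, -0.28 and -0.17 in the Wagyu cross. For birth over d195 it was -3.82, -3.66 and -3.53 in the Piedmontese cross and -3.90, -3.78 and -3.29 in the Wagyu cross. The ratios of the last step are more than 2 log2 units below every ratio of the earlier steps, and the crosses overlap in it. Among the 975 named genes, no gene had a lower fitted change in this step. The fitted changes were -0.27 (SE 0.13, adjusted p = 0.123), -0.47 (SE 0.12, adjusted p = 0.0119) and -3.66 (SE 0.13, adjusted p = 1.35e-13), and -4.40 (SE 0.22, adjusted p = 2.03e-11) from d60 to birth. With all arrays scaled to one spread, the last step was -2.56 (adjusted p = 7.5e-10). The call of the second step was lost without the arrays numbered 1 (adjusted p = 0.135) or 3 (adjusted p = 0.116). The last step exceeded the first by -3.39 (SE 0.19, adjusted p = 5.84e-10) and the second by -3.19 (SE 0.18, adjusted p = 3.33e-10).

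**Figure D2:**
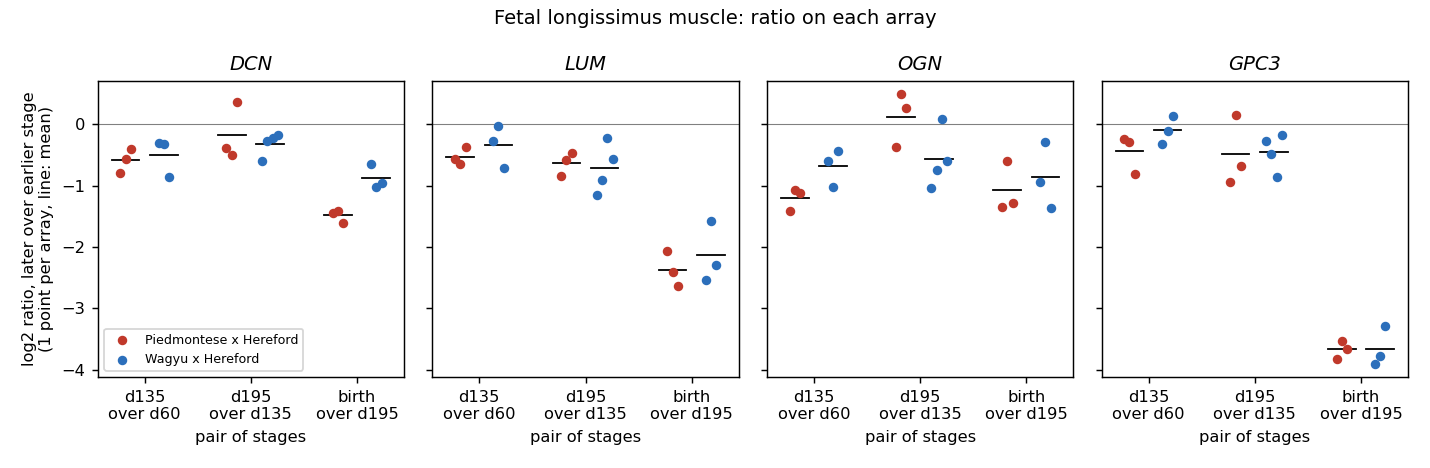
Log2 ratio, later over earlier stage, of DCN, LUM, OGN and GPC3 on every fetal array that joins 2 stages of a cross, for each pair of stages; each point is 1 array, coloured by cross, and the horizontal line is the mean. The arrays of birth over d195 lie lowest for GPC3, at -3.90 to -3.29, while those of OGN overlap with its earlier steps.

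The falls were also compared between the genes, as differences of log2 changes and not of levels, since ratios carry no level that can be set against another gene. Of 24 such differences (6 pairs in 4 comparisons), 13 passed the test after adjustment: 2 for d135 over d60, 1 for d195 over d135, 5 for birth over d195 and 5 for birth over d60. In the last step GPC3 fell further than LUM by 1.41 (SE 0.19, adjusted p = 3.04e-06). LUM in turn fell further than DCN by 1.08 (SE 0.18, adjusted p = 4.47e-05). The mean of DCN includes its cDNAs 2 and 4, at -0.55 (SE 0.61) and 0.42 (SE 0.15) in that step. Its cDNAs 1, 3, 5 and 6 were at -1.89 to -1.50, and those of LUM at -2.58 and -1.93. The cDNAs of OGN differed as well, and the differences between genes were not recomputed by cDNA. DCN and OGN did not differ by the test in the last step (-0.21, 95% confidence interval -0.60 to 0.19) or over the whole period (0.17, -0.50 to 0.84). In the first step the order was another: OGN fell further than LUM, which stood 0.51 above it (SE 0.16, adjusted p = 0.0159), and OGN minus GPC3 was -0.67 (SE 0.20, adjusted p = 0.0135).

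The cDNAs of a gene did not all move alike. For DCN, cDNAs 1, 3, 5 and 6 fell, with changes of -2.64, -2.65, -2.40 and -2.74 on the log2 scale from d60 to birth (SE 0.22 to 0.34). DCN cDNA 2 varied widely between arrays of the same link, from -0.73 to 4.21 for d135 over d60 in the Piedmontese cross, and its change from d60 to birth was -0.20 with an SE of 1.04. DCN cDNA 4 went another way after d195: it was -0.60, -0.46 and 0.44 on the arrays of birth over d195 in the Piedmontese cross and 0.47, 0.98 and 1.71 in the Wagyu cross, and rose by 0.42 in the mean of the crosses (SE 0.15, adjusted p = 0.0199). Duplicate spots of cDNA 4 differed by a median of 0.033 on the fetal arrays, the smallest difference of the 11 cDNAs. Without cDNA 4 the fall of DCN from d60 to birth was -2.26 (SE 0.24), and without cDNAs 2 and 4, whose omission was chosen after their values were seen, it was -2.61 (SE 0.22, adjusted p = 6.49e-09).

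LUM and OGN have 2 cDNAs each. Those of LUM fell, with log2 changes of -3.73 (SE 0.30) and -2.997 (SE 0.34) from d60 to birth. Those of OGN changed by -2.75 (SE 0.64) and -1.51 (SE 0.25), both called, with the fall in different steps. OGN cDNA 1, measured on 22 of 25 arrays, changed by -0.75 (SE 0.37, not called) in the first step and fell by 2.04 (SE 0.38, adjusted p = 0.000193) in the last. OGN cDNA 2, measured on all 25, fell by 1.01 (SE 0.15, adjusted p = 4.13e-05) in the first step and changed by -0.21 (SE 0.15, adjusted p = 0.259) in the last. The last step minus the first was -1.29 (adjusted p = 0.0609) for cDNA 1 and 0.80 (adjusted p = 0.00465) for cDNA 2, so that the even division of the fall of OGN is an average of clones with different courses.

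**Figure D3:**
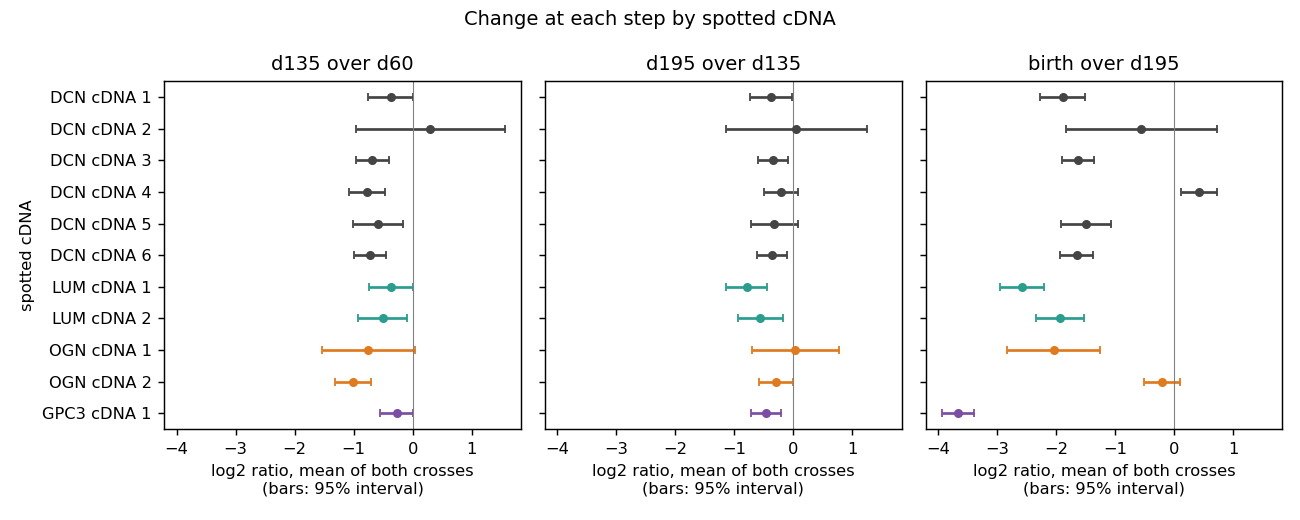
Fitted log2 change of each of the 11 cDNAs in the steps d135 over d60, d195 over d135 and birth over d195, averaged over the crosses; bars are 95% confidence intervals. DCN cDNA 4 stands at 0.42 in the last step, where cDNAs 1, 3, 5 and 6 of DCN stand between -1.89 and -1.50, and the 2 cDNAs of OGN stand at -2.04 and -0.21.

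The crosses were compared at each stage, to ask whether the myostatin-mutant sire breed goes with another level of these genes. None of the 4 genes differed between the crosses at any stage by limma's adjusted p, and 3 of the 16 comparisons had an unadjusted p under 0.05. With limma's array weights, GPC3 was called at d60, LUM at birth, and both in the change from d60 to birth. The background is low here: 0.048% of features differed at d60, 0% at d135, 0% at d195 and 0.282% at birth. The size of these ratios depends on the centring. Without it, the median of all features for Piedmontese over Wagyu cross was 0.053 at d60, against -0.005, and 0.175 at birth, against 0.008. The Piedmontese over Wagyu log2 ratio of GPC3 at d60 was 0.29, 0.39 and 0.59 on its 3 arrays, above 0 on each, with a fitted value of 0.39 (SE 0.17, adjusted p = 0.365). At birth that of LUM was -1.18, -0.22 and -0.20, with a fitted value of -0.48 (SE 0.19, adjusted p = 0.193). That of DCN was -0.64, -0.42 and 0.05, with a fitted value of -0.39 (SE 0.16, adjusted p = 0.199). OGN at birth was -0.51, -0.31 and 0.49, on both sides of 0. The fall from d60 to birth was larger in the Piedmontese cross by -0.65 for LUM (95% confidence interval -1.18 to -0.12, adjusted p = 0.0921) and by -0.60 for GPC3 (-1.07 to -0.13, adjusted p = 0.0823), and neither passed the test, against 13.2% of all features that did. For DCN and OGN the difference was -0.24 (-0.68 to 0.20) and -0.30 (-0.90 to 0.29). A single cDNA, DCN cDNA 4, was lower in the Piedmontese cross at birth, at -1.31, -1.05 and -0.94 on the 3 arrays (fitted -1.14, SE 0.19, adjusted p = 0.0205), and the other 5 cDNAs of DCN were not called, at -0.43 to 0.25.

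Other genes of the same pathway were taken from lists of proteoglycans, collagens, and the ligands, receptors and enzymes that act with them. Of 15 small leucine-rich proteoglycans, 7 were measured. From d60 to birth 6 of the 7 fell, with a median of -2.14 over the 7 against -0.066 over all features and -0.24 over the named genes, and 25.7% of features were lower. In the last step all 7 fell, with a median of -0.97, against 25.8% of features. The 7 include DCN, LUM and OGN themselves. Beside DCN, LUM and OGN, fibromodulin (FMOD), which also binds collagen fibrils, fell by 2.70 (SE 0.72) on the log2 scale from d60 to birth. Keratocan (KERA), best known from the cornea, fell by 2.41 (SE 0.49), and biglycan (BGN), the closest relative of DCN, fell by 1.33 (SE 0.24). ECM2, a matrix protein with leucine-rich repeats, was at -0.44 (SE 0.26, adjusted p = 0.171). Before d195, KERA alone of these other 4 was called: it fell by 0.88 (SE 0.27, adjusted p = 0.0293) from d135 to d195. In the bovine RefSeq annotation (ARS-UCD2.0) KERA, LUM and DCN are successive genes of 1 chromosome, and OGN, OMD, ASPN and ECM2 of another stretch. OMD and ASPN were not measured under a gene name.

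Of 26 other proteoglycans, 4 were measured and 3 fell from d60 to birth (25.7% of features were lower), namely GPC3 itself, BGN, which both lists hold, and syndecan 2 (SDC2, -1.36, SE 0.34), a heparan sulphate proteoglycan that spans the membrane. Serglycin (SRGN), the proteoglycan of secretory granules of blood cells, was at -0.70 (SE 0.36, adjusted p = 0.111). GPC4, which lies next to GPC3, was not measured under a name, and neither was any of 43 genes of glycosaminoglycan synthesis.

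Of 18 collagens, 7 were measured and 5 fell from d60 to birth, with a median of -2.97 over the 7. The share of features lower in that comparison, 25.7%, is also the background of the lists that follow. The fibrillar collagens COL3A1, COL1A2 and COL1A1, to whose fibrils the small leucine-rich proteoglycans bind, fell, with log2 changes of -3.88 (SE 0.21), -3.49 (SE 0.40) and -2.97 (SE 0.42), and the fibril-associated COL12A1 fell by 4.28 (SE 0.35). Of 38 ligands and receptors bound by these proteoglycans, 5 were measured and 3 fell: CCN2, a matrix-bound growth regulator (-1.83, SE 0.32), IGF2, the fetal insulin-like growth factor (-0.85, SE 0.23), and CD81, a membrane protein that GPC3 binds (-0.46, SE 0.17). The list of proteases and their inhibitors had 5 of 18 measured, and 3 fell: the inhibitors TIMP1 (-1.48, SE 0.30) and TIMP2 (-1.31, SE 0.24) and the gelatinase MMP9 (-0.76, SE 0.20).

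**Figure D4:**
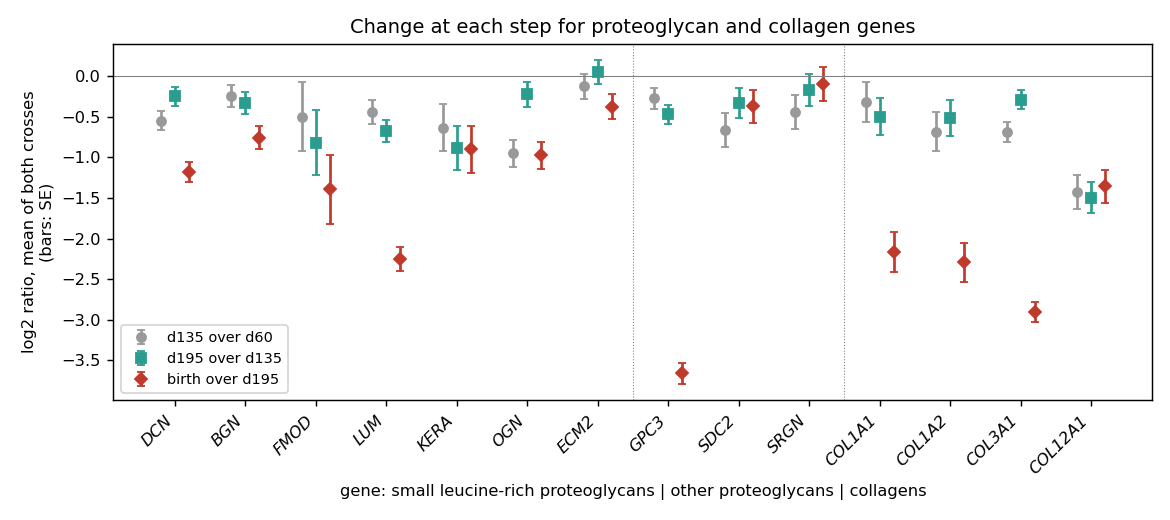
Fitted log2 change of the measured proteoglycans and of 4 collagens in each of the 3 fetal steps, averaged over the crosses; bars are the SE of the fit. In the step from d195 to birth the small leucine-rich proteoglycans range from -2.26 for LUM to -0.37 for ECM2, and GPC3 stands at -3.66.

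Fibroblast markers fell along with the 4 genes. Of 12 such markers 6 were measured and 5 fell from d60 to birth (25.7% of features lower), with a median of -3.23, the collagens COL1A1, COL1A2 and COL3A1 being among the 6, and the mean of these markers for birth over d195 was -2.87 to -1.40 on the arrays of the Piedmontese cross and -1.70 to -1.34 on those of the Wagyu cross. Of 12 muscle fibre markers 11 were measured and all 11 rose, with a median of 3.13, where 22.6% of features were higher. Of 7 myoblast markers 4 were measured, of which 2 rose and 2 fell. Of the measured markers of adipocytes 2 of 8 fell and 1 rose, of immune cells 1 of 5 fell and 2 rose, and of endothelium and mural cells 1 of 3 fell. None of 11 epidermis markers and none of 10 cartilage markers was measured under a name, so that skin or cartilage left on the d60 samples could not be looked for. The part of cell composition in the falls was not tested. Array medians before centring ran from -0.48 to 0.47, and without centring the median of all features for birth over d60 moved from -0.066 to -0.22, which changed the direction of none of the 4 genes in any of the steps.

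The genes whose ratios followed those of each member most closely were found by Pearson's r over the 25 fetal arrays, among 974 other named genes. The arrays share groups and animals, so that r is a description only. DCN was followed by FLVCR2 (r = 0.90), VIM, the intermediate filament of mesenchymal cells (0.90), and COL3A1 (0.89). LUM was followed by COL3A1 (0.96), GPC3 (0.93) and COL1A2 (0.93). GPC3 was followed by COL3A1 (0.94), LUM (0.93) and MCAM (0.93), a cell adhesion molecule of vessel walls. OGN had other genes beside it, namely TUBA1A, an alpha tubulin (0.91), CCN3, a matricellular protein (0.90), and PHLDB2 (0.89). The median r over all 974 genes was 0.12 to 0.15 and the 95th percentile 0.76 to 0.80, so that many genes followed each member closely. On the 20 crossbred arrays, where the ratios are smaller, the r of LUM with GPC3 was -0.38, and that of DCN with VIM was 0.75.

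In the crossbred muscle from T1 to T3 the changes were far smaller. A single gene of the 4 was called in any comparison averaged over the crosses: GPC3 fell 1.69-fold from T1 to T2. Of all features, 4.06% were lower in that step in the mean of the crosses, 3.43% in the Piedmontese cross and 1.38% in the Wagyu cross. Its log2 ratio for T2 over T1 was -0.69 and -0.57 on the 2 arrays of the Piedmontese cross and -1.15 and -0.63 on those of the Wagyu cross, below 0 on all 4. The fitted change was -0.76 (SE 0.19, adjusted p = 0.0235), with -0.86 (SE 0.22, adjusted p = 0.0397) in the Wagyu cross and -0.66 (SE 0.22, adjusted p = 0.0901) in the Piedmontese cross. The call of the mean was lost without the arrays numbered 1 (adjusted p = 0.322) or 2 (adjusted p = 0.229). For T3 over T2 GPC3 was at 0.48 and 0.77 in the Piedmontese cross and 0.004 and 0.56 in the Wagyu cross, above 0 on all 4, with a fitted change of 0.45 (SE 0.19, adjusted p = 0.134). From T1 to T3 it was at -0.31 (95% confidence interval -0.87 to 0.26).

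DCN, LUM and OGN were not called in any crossbred comparison. For T3 over T2, where 10.7% of features were called in either direction, the mean log2 change was -0.11 for DCN (95% confidence interval -0.31 to 0.09), -0.29 for LUM (-0.63 to 0.06) and -0.31 for OGN (-0.55 to -0.08, adjusted p = 0.0746). OGN for T3 over T2 was -0.52 and -0.45 in the Wagyu cross and -0.32 and 0.03 in the Piedmontese cross. For T3 over T1, with 0.759% of features called, none of the 4 was. DCN for T2 over T1 was -0.43 and -0.22 in the Piedmontese cross and 0.05 and 0.19 in the Wagyu cross. These array values do not overlap, but T2 carried Cy3 in the Piedmontese cross and Cy5 in the Wagyu cross. The fitted difference, with a term for dye, was -0.40 (SE 0.11) and did not pass the test (adjusted p = 0.0977).

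The crosses did not differ by the test in any of the 4 genes at T1 (0.753% of features called), T2 (3.28%) or T3 (0.556%), nor in the change from T1 to T3 (0.122%). Of the 12 comparisons at single times, 4 had an unadjusted p under 0.05 in limma: DCN and OGN at T1, DCN at T2 and GPC3 at T3. The arrays of GPC3 at T1 lay on both sides of 0, at -0.77, -0.56, 0.37 and 0.48, and those at T3 were -0.14, 0.39, 0.45 and 0.84. DCN at T1 was 0.04, 0.09, 0.25 and 0.33, above 0 on all 4 arrays, with a fitted value of 0.20 (SE 0.09, adjusted p = 0.272). On 1 array that carried the same Piedmontese cross T1 RNA in both dyes, where a ratio of 0 is the true value, DCN was -0.10, LUM 0.27, OGN 0.01 and GPC3 0.12, and the median absolute ratio over all elements was 0.19.

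**Figure D5:**
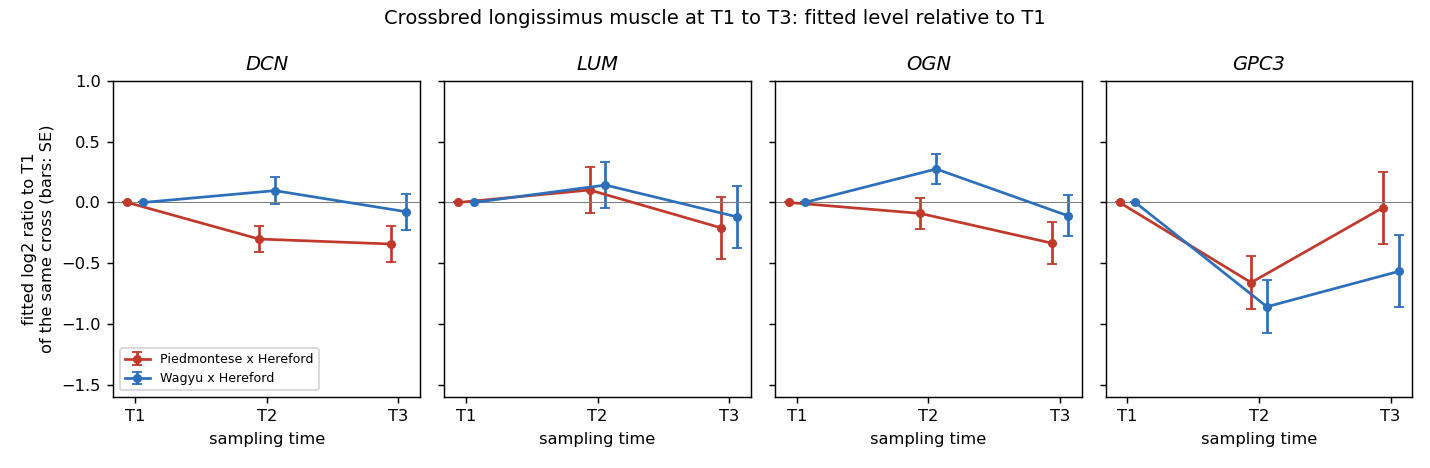
Fitted level of DCN, LUM, OGN and GPC3 in crossbred muscle at T1, T2 and T3 as a log2 ratio to T1 of the same cross; bars are the SE of the fit. GPC3 is lower at T2, by -0.66 in the Piedmontese cross and -0.86 in the Wagyu cross, and no gene differs from T1 at T3 by the test.

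Among the other listed proteoglycans of the crossbred muscle, FMOD and ECM2 moved against each other. FMOD rose by 0.84 (adjusted p = 0.00424) from T1 to T2 and fell by 1.06 from T2 to T3, while ECM2 fell by 0.98 (adjusted p = 0.00987) and then rose by 0.92. From T2 to T3 the collagens COL1A1, COL1A2 and COL3A1 fell, with log2 changes of -1.08, -0.98 and -0.87, and the other 4 of 7 measured collagens were not called. The fibroblast markers, 6 measured of 12, had a median of -0.68 in that step with 4 called lower, against 3.98% of features. Those 4 are the same 3 collagens and VIM (-0.50), while S100A4 was at 0.29 and OSR1 at -0.29, neither called. Of the muscle fibre markers 5 of 11 were lower as well (median -0.40), and of endothelium and mural cells 2 of 3 (median -0.51). DCN and LUM, which fibroblasts also express, were at -0.11 and -0.29 in that step, neither called. The value of LUM is an average of cDNAs that stood apart. Its cDNA 1 was at -0.65 (SE 0.24, adjusted p = 0.0869 in limma) and its cDNA 2 at 0.075 (SE 0.21), neither called.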

How the data were processed

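Longissimus muscle RNA was compared on two-colour arrays carrying 21168 cDNA elements from adult muscle and fat libraries. The authors scanned the arrays with GenePix instruments and deposited background-corrected log2 ratios; which further edits were applied is not given in the sources used here. Ratios at the upper limit of 16.61 and empty cells counted as missing. The median of every array was subtracted from it, and elements with 1 gene symbol were averaged per gene. Features with values on a share of at least 0.8 of the arrays were kept. The authors' mixed model used intensities, which were not used here, so limma 3.58.1 (R 4.3.3) was fitted to the ratios with a term per group and an intercept for dye, leaving 17 residual degrees of freedom in the fetal set and 14 in the crossbred set. The fetal fit has as many terms as links. Benjamini-Hochberg adjustment covered every tested feature (threshold 0.05). Array numbers were not used as pairs, since which animal a number stands for is not given. Residuals of same-numbered arrays in links that share a group had a median correlation of -0.12 (-0.53 to 0.45). For arrays of different numbers in such links the median was 0.04. A group carries Cy5 in a link and Cy3 in the next, so that a shared animal would make this correlation negative. The values therefore do not show that same-numbered arrays are free of shared animals. The fitting code was tested on simulated data.

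The 4 genes and the gene lists were chosen with earlier results of these data known. Named genes are the 4 members, the measured genes of both proteoglycan lists, the 3 genes of each other pathway list with the smallest p for birth over d60, COL1A1, COL1A2 and COL3A1, and the 3 genes with the highest r for each member; cDNAs singled out were chosen after their values were seen. Alternatives were no centring, scaling, the median over elements, array weights, keeping values at the limit, no dye term, other filters on missing values, direct arrays only, leaving out the d60 links, a replicate block and leaving out each array number. A further table, 24 columns of other experiments and 2 samples with contradictory labels were not used. The number of arrays limits the precision.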

Additional observations from a re-analysis of the deposited data

How the results depend on the processing

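Of 496 fetal values of single genes recomputed under the alternatives, 468 kept their direction and side of the threshold, 17 lost the call, 3 gained it and 8 changed sign; of 26 crossbred values these were 23, 2, 1 and 0. The 8 were all of OGN. Its last step minus first step became 0.247 with arrays scaled to one spread, 0.144 with the median over elements, 0.129 with array weights, 0.028 without the arrays numbered 1, 0.238 without those numbered 3 (-0.343 to 0.238 over the numbers left out) and 0.80 with cDNA 2 only, an alternative chosen after seeing the data. With cDNA 1 only, also added then, its second step was 0.037, and with cDNA 2 only its last step minus second step was 0.0901.

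With array weights, 4 of the 4 genes were called for d195 over d135, 1 differed between the crosses at d60 (GPC3), 1 at birth (LUM), 2 in the change from d60 to birth (LUM and GPC3), and 2 were called for T3 over T2 (OGN and GPC3). Without centring or with arrays scaled to one spread, 0 genes were called for T2 over T1 in the Wagyu cross, and without centring 741 features were called in the mean, against 1183. With the median over elements, 1 gene (DCN) was called for T2 over T1 in the Piedmontese cross. The cause was not tested. Leaving out each array number, the fetal genes called for d195 over d135 ranged from 0 to 2, those for T2 over T1 from 0 to 1 in the mean and in each cross, the features called for T2 over T1 from 0 to 1119, and GPC3 for T2 over T1 from -0.856 to -0.662. Over all alternatives, the changes from d60 to birth ranged from -4.60 to -3.41 for GPC3, -3.73 to -2.82 for LUM, -2.75 to -1.51 for OGN and -2.61 to -1.70 for DCN, and were called in each; when an array number was left out, from -4.60 to -4.22, -3.52 to -3.21, -2.41 to -1.82 and -2.03 to -1.93. Without centring, lower features made up 55.9% of those called for d195 over d135, against 37.0%. With the array number as a replicate block, GPC3 changed by -4.45 from d60 to birth and by -0.759 from T1 to T2, and the number of the 4 genes called was the same in every comparison.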
